A study of Homo sapiens with 6 samples.

Results

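The genes described are 9 genes of the actin cytoskeleton and of its transcriptional control by SRF, taken from a count table of 20476 genes. They were taken by name, with Ensembl identifiers matched to symbols, as SRF itself, the cytoplasmic actins ACTB and ACTG1, the filament-binding genes TAGLN2 and TPM1, the myosin light chain gene MYL9, the crosslinker genes FLNA and ACTN4, and the adhesion gene VCL. All 9 were present in the table and all 9 were among the 12576 genes tested. Measurements were made in SW620, an established human colorectal cancer line derived from a lymph node metastasis. The shECM1 group has 3 libraries from cells with stable hairpin knockdown of ECM1, a gene for a secreted matrix glycoprotein, and the shNC group has 3 libraries from cells with a negative control hairpin. The labels also give the source as colorectal cancer tissue, and they describe total RNA extraction beside droplet single-cell libraries, and do not say whether a table column was sequenced in bulk or summed from cells. No drug, time course or further genotype is given, the labels do not say whether a line is 1 clone, and every library shares the SW620 background. The study asked how ECM1 bears on expression of the chemokine CCL20. Which table columns belong to which hairpin was inferred from the letters and numbers in their names, so an opposite meaning of those letters would reverse every direction below.

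Actin exists as monomers and as filaments, and cells shift between these forms as they spread, contract and attach. SRF is a transcription factor that binds a DNA element called the CArG box. Its partner MRTF is held in the cytoplasm by actin monomers and enters the nucleus when monomers are used up by filament growth, so that many genes of the filament system, actin genes included, are under SRF control. A second set of partners, the ternary complex factors such as ELK1, couples SRF to growth factor signalling and to immediate-early genes. In intestinal epithelium these proteins make up the belt beneath cell junctions, the core of microvilli and the plaques that hold cells to matrix.

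Library totals ran from 9881720 to 16813951 counts. ECM1, the targeted gene, was at 38.8, 19.0 and 52.3 CPM in the controls (replicates 1, 2 and 3) and at 14.8, 13.6 and 8.41 CPM in shECM1, without overlap. CPM are counts scaled to library size, here adjusted by the trimmed mean of M values (TMM). The control libraries spread widely. On the first principal component of all tested genes shNC replicates 1 and 3 lay at -25.2 and -41.3, while shNC replicate 2 lay at 8.64, near the shECM1 libraries at 16.6 to 23.3. Results that rest on this library are given with and without it. Of 8 colorectal epithelial markers 7 were tested, and their summed level was 10291 to 14927 CPM in shNC and 10022 to 11265 CPM in shECM1, mostly from the keratins KRT8 and KRT18. CDX1 had at most 1 count in any library and KRT20 had 9 to 21. CDH17 was at 5.05 to 8.02 CPM, CDX2 at 9.59 to 24.1 CPM and EPCAM at 454.6 to 538.0 CPM. The sum therefore says little about the markers other than KRT8 and KRT18. Separate cultures are not named in the labels, and p-values therefore reflect spread among these libraries that may be technical.

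SRF (ENSG00000112658, GRCh38 chromosome 6, 43171299 to 43181507, plus strand) was at 27.3, 30.6 and 22.9 CPM in shNC replicates 1, 2 and 3. It was at 24.5, 25.3 and 35.4 CPM in shECM1 replicates 1, 2 and 3. The groups overlapped, and the highest value belonged to shECM1 replicate 3. The means were 26.9 ± 3.86 and 28.4 ± 6.09 CPM (SD, n = 3 each), from 247 to 484 counts per library. The log2 fold change, shECM1 minus shNC, was 0.08 ± 0.17 (SE), with a 95% interval of -0.295 to 0.45. The edgeR quasi-likelihood test, adjusted over all genes by Benjamini-Hochberg, did not call it (adjusted p = 0.81). In these libraries fewer cells that express a gene and less RNA per cell cannot be told apart, here or for the genes that follow.

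Promoter sequences are shown for the members whose window holds a CArG box, the element through which SRF acts, because it links SRF to the other genes described. Windows run from 250 bases before to 50 bases after each RefSeq start (build GRCh38.p14), and 7 of the 9 genes matched, with 11 windows. ACTB and MYL9 were not matched. The CArG box was searched on both strands, and it reads as the same element on each. It was found in windows of SRF, ACTG1 and FLNA, against 1.29% of all 35116 windows of the same length. Each window below is written 5′ to 3′ on the gene's strand, with CArG boxes in capitals. The SRF window is chr6:43171019-43171318 (plus strand), that of ACTG1 is chr17:81512750-81513049 (minus strand) and that of FLNA is chrX:154374585-154374884 (minus strand).
SRF: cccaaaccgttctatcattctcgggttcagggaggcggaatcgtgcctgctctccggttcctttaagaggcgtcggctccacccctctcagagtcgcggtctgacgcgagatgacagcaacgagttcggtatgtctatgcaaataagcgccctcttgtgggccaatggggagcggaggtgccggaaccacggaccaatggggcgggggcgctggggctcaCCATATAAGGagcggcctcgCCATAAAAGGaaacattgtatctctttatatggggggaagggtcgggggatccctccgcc
ACTG1: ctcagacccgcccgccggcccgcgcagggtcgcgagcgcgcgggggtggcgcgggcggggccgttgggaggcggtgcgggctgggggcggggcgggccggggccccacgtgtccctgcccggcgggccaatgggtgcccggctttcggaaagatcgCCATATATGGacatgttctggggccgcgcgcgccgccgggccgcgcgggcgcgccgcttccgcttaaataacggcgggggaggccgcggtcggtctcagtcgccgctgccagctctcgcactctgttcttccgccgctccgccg
FLNA: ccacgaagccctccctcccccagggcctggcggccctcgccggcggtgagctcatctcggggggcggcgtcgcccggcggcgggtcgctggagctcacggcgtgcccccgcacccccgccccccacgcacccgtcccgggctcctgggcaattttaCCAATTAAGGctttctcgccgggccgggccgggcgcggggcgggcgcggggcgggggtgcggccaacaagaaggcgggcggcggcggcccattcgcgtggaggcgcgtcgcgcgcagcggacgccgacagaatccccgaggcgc

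The first base of the box lay 94 bases before the start in both ACTG1 and FLNA, and 30 and 10 bases before the start in SRF. With 1 mismatch allowed, ACTN4 joined these genes, and 18.9% of all windows held such a site. A match describes letters in a window and does not show binding, and these data hold no measurement of binding.

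**Figure D1:**
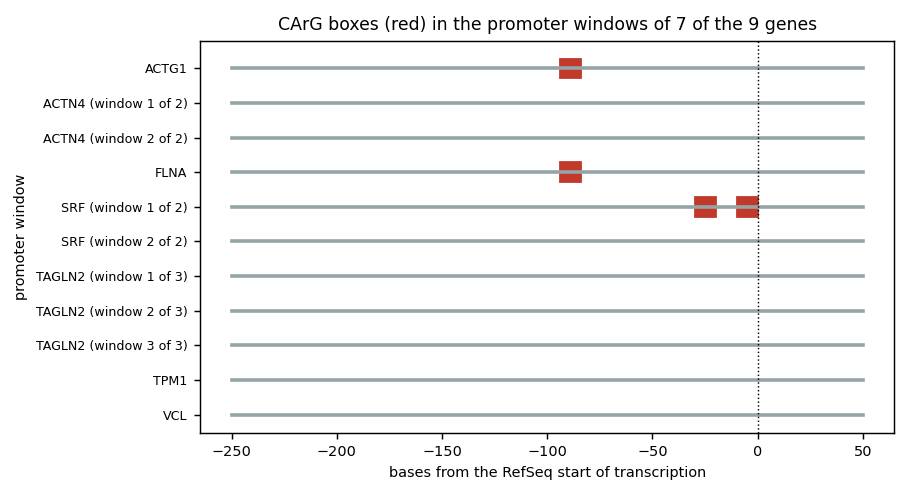
Positions of CArG boxes (red blocks, to scale) in 11 promoter windows (grey lines) of the 7 genes with a RefSeq window; the horizontal axis is the distance in bases from the start of transcription. The boxes of ACTG1 and FLNA begin 94 bases before the start, and those of SRF at 30 and 10 bases before it.

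The 2 cytoplasmic actins, which form the filaments of non-muscle cells, were the most abundant members by count, and both had lower mean levels in shECM1. ACTB (ENSG00000075624, chromosome 7, 5527147 to 5563784, minus strand) was at 3975, 2988 and 4734 CPM in shNC replicates 1, 2 and 3 and at 2811, 2841 and 3147 CPM in shECM1 replicates 1, 2 and 3. shECM1 replicate 3 lay above shNC replicate 2, so the groups overlapped. Its log2 fold change of -0.41 ± 0.15 (SE), a fitted ratio of 0.752, was not called (edgeR adjusted p = 0.148). ACTG1 (ENSG00000184009, chromosome 17, 81509971 to 81523847, minus strand) was at 3342, 2805 and 3839 CPM in shNC and at 2513, 2600 and 2889 CPM in shECM1, in the same replicate order. Its order of libraries was that of ACTB, again with shECM1 replicate 3 above shNC replicate 2. A log2 fold change of -0.32 ± 0.12 (SE) was also uncalled (edgeR adjusted p = 0.168). Together the pair held 0.733%, 0.594% and 0.810% of all counts in the controls, in replicate order, and 0.543%, 0.543% and 0.608% in shECM1. The annotation names 10 pseudogenes after ACTB and 20 after ACTG1, and none of them is a row of the table. Actin genes are near-identical in their coding parts, so how reads were divided among them is uncertain.

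Among the filament-binding genes the groups overlapped throughout. TAGLN2 (ENSG00000158710, chromosome 1, 159918107 to 159925732, minus strand) encodes transgelin 2, an actin-binding protein of the calponin family. It was at 271.4, 234.7 and 331.3 CPM in shNC replicates 1, 2 and 3 and at 263.0, 258.7 and 230.5 CPM in shECM1, with a log2 fold change of -0.16 ± 0.13 (SE). Its lowest and second-lowest libraries were shECM1 replicate 3 and shNC replicate 2. TPM1 (ENSG00000140416, chromosome 15, 63042632 to 63071915, plus strand) encodes a tropomyosin, a coiled coil that lies along the filament and gates myosin access. It was at 109.4, 114.6 and 123.6 CPM in shNC and at 130.2, 124.5 and 99.3 CPM in shECM1. Here shECM1 held both the highest and the lowest value, and the log2 fold change was 0.03 ± 0.12 (SE), with a 95% interval of -0.239 to 0.29. Exons of TPM1 overlap antisense transcripts, and whether counting used strand is not given in the sources used here. MYL9 (ENSG00000101335, chromosome 20, 36541484 to 36551447, plus strand) encodes a regulatory light chain of myosin II, typical of smooth muscle and a textbook SRF target. It was the scarcest member, at 4.57, 2.73 and 4.58 CPM in shNC and 2.48, 3.69 and 4.46 CPM in shECM1, from 25 to 64 counts per library. Its 95% interval for the log2 fold change ran from -0.776 to 0.5, and the SD between libraries was 26.9% of the mean in shNC and 28.2% in shECM1.

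The genes whose groups did not overlap were the crosslinkers FLNA and ACTN4 and the adhesion gene VCL, all at lower levels in shECM1. FLNA (ENSG00000196924, chromosome X, 154348524 to 154374638, minus strand) encodes filamin A, which ties filaments into networks and anchors them to integrins. It was at 1795, 1455 and 2064 CPM in shNC replicates 1, 2 and 3 and at 1352, 1267 and 1252 CPM in shECM1. Every shECM1 library lay below the lowest control, shNC replicate 2, and the log2 fold change was -0.46 ± 0.13 (SE), a fitted ratio of 0.728. edgeR did not call it (adjusted p = 0.105). ACTN4 (ENSG00000130402, chromosome 19, 38647649 to 38731583, plus strand) encodes alpha-actinin 4, which bundles filaments in stress fibres and at the cell edge. It was at 1553, 1144 and 1875 CPM in shNC and at 1021, 1028 and 1132 CPM in shECM1. shNC replicate 2 and shECM1 replicate 3 were nearly equal, and the log2 fold change was -0.52 ± 0.15 (SE) (edgeR adjusted p = 0.112). VCL (ENSG00000035403, chromosome 10, 73995193 to 74121363, plus strand) encodes vinculin, which couples filaments to adhesion plaques and junctions. It was at 436.0, 338.2 and 512.4 CPM in shNC and at 336.8, 310.9 and 245.8 CPM in shECM1. shNC replicate 2 and shECM1 replicate 1 differed by less than the spread in either group, and the log2 fold change was -0.53 ± 0.16 (SE) (edgeR adjusted p = 0.115). Exons of ACTN4 overlap those of CAPN12, and exons of VCL those of AP3M1, each on the other strand and each a row of the table.

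**Figure D2:**
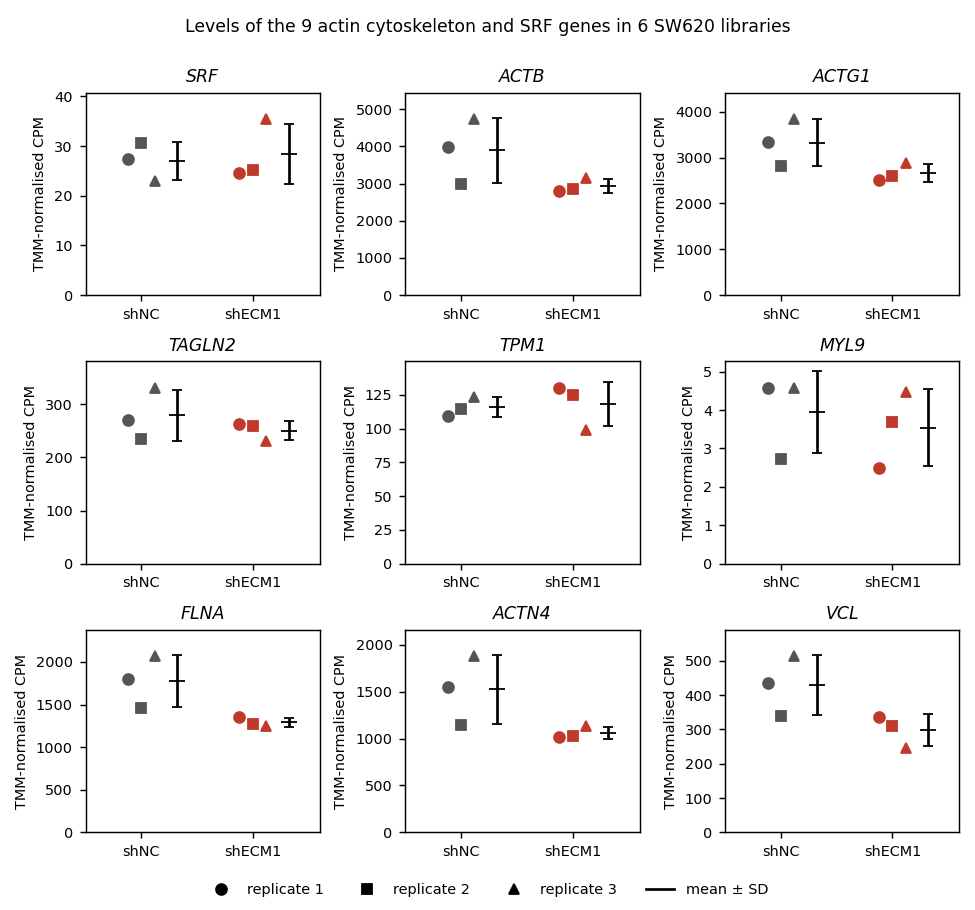
TMM-normalised CPM (vertical axes, from 0) of the 9 genes in each shNC library (grey) and shECM1 library (red), with replicate number as marker shape and mean ± SD beside each group. In FLNA, ACTN4 and VCL the shECM1 libraries lie below every control, and in SRF, TPM1 and MYL9 the groups interleave.

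Of the 9 genes, 7 had a log2 fold change below 0, where 6109 of all 12576 genes tested did. The median of the 9 was -0.319, against 0.011 for all genes tested. edgeR called 0 of the 9 at an adjusted p under 0.05, as it called 0% of all genes. The targeted gene ECM1 was also uncalled in this fit (log2 fold change -1.58 ± 0.32 SE, edgeR adjusted p = 0.0973). Without shNC replicate 2 edgeR called ECM1 lower (adjusted p = 0.000192). At an unadjusted p under 0.05, 5 of 9 were lower (ACTB, ACTG1, FLNA, ACTN4 and VCL) and 0 were higher, where 14.2% of all genes were lower and 8.31% higher. The members were chosen with earlier results of these data known, so counts set beside shares of all genes are description only. Groups were apart with shECM1 lower in 3 of 9, against 13.2% of all genes, and with shECM1 higher in 0, against 11.2%. DESeq2 called 3 of 9 lower (FLNA at adjusted p = 0.0271, ACTN4 at 0.0311 and VCL at 0.0376), where it called 4.61% of all genes lower and 0.875% higher. edgeR with no count filter called FLNA (adjusted p = 0.047) and ACTN4 (adjusted p = 0.0469), where 2.83% of all genes were called lower.

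Without shNC replicate 2, edgeR called 5 of 9 lower and 0 higher, where 14.1% of all genes were called lower and 9.73% higher. The log2 fold changes were then -0.56 ± 0.10 (SE) for ACTB, -0.42 ± 0.10 for ACTG1, -0.57 ± 0.10 for FLNA, -0.68 ± 0.10 for ACTN4 and -0.66 ± 0.13 for VCL. Their edgeR adjusted p-values ran from 0.00105 (ACTN4) to 0.0122 (ACTG1). SRF, TPM1, TAGLN2 and MYL9 stayed uncalled (adjusted p of 0.445, 0.88, 0.122 and 0.39). Leaving out any other single library left 0 of 9 called. Without shNC replicate 3 the fold changes were smallest, at -0.25 for ACTB, -0.20 for ACTG1, -0.33 for FLNA, -0.35 for ACTN4 and -0.38 for VCL.

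**Figure D3:**
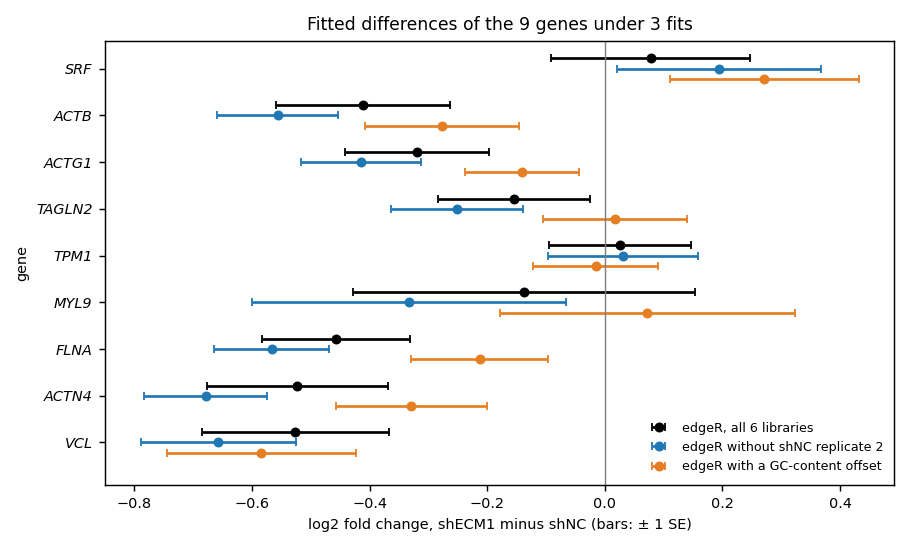
Log2 fold change (horizontal axis, shECM1 minus shNC, bars ± 1 SE) of each gene in the edgeR fit of all 6 libraries (black), without shNC replicate 2 (blue) and with an offset for GC content (orange). ACTB, ACTG1, FLNA, ACTN4 and VCL lie below 0 in all 3 fits, TAGLN2, TPM1 and MYL9 change sign under the offset, and SRF lies above 0 in all 3.

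The members shared an order among the control libraries. In 7 of 9, all but SRF and TPM1, the level was highest in shNC replicate 3, then replicate 1, then replicate 2. Over all genes tested 28.2% had this order. shNC replicate 2 lay within the range of the shECM1 libraries in 6 of 9 members and in 57.1% of all genes, while shNC replicate 3 did so in 1 of 9 (TPM1) and in 28.7%. The SD in CPM, not scaled to the mean, was larger in shNC than in shECM1 in 7 of 9 members and in 54.6% of all genes. For ACTN4 the SD was 24.0% of the mean in shNC and 5.84% in shECM1, and for FLNA it was 17.2% and 4.19%. SRF and TPM1 went the other way, at 14.3% and 21.4% for SRF and at 6.22% and 13.9% for TPM1. As a percent of the mean, the SD of MYL9 was also larger in shECM1, at 26.9% in shNC and 28.2% in shECM1.

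The profile of SRF over the libraries lay farther from each other member than from the median gene. Log2 CPM centred on each gene's mean differed between SRF and the other members by a root mean square of 0.332 (ACTG1) to 0.513 (VCL), and the median over 11574 other genes was 0.277. The genes nearest to SRF over the 6 libraries were WDR6 (0.020), TMEM129 (0.027), HPS1 (0.029), CCDC115 (0.035) and FAM174B (0.035). Like SRF, each of the 5 was highest in shECM1 replicate 3 and lowest in shNC replicate 3, which follows from how they were picked. WDR6 was at 136.4, 158.4 and 118.9 CPM in shNC and at 127.6, 130.5 and 182.3 CPM in shECM1.

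Transcript GC content moved with the differences across the whole table. With tested genes in 5 equal bins of GC content, the median log2 fold change was 0.135 in bin 1, the lowest, and -0.202 in bin 5, above 58.7% GC. FLNA (62.2% GC), MYL9 (60.5%) and SRF (61.0%) fall in bin 5, and ACTB (55.1%), ACTG1 (57.8%), TAGLN2 (57.0%) and ACTN4 (58.6%) in bin 4, whose median was -0.084. VCL (45.1%) and TPM1 (45.9%) fall in bin 2, whose median was 0.092. Relative to the median of its bin, the log2 fold change of VCL was -0.618, the widest gap among the members, and that of SRF was 0.28. With a per-library GC trend as an offset, a fit chosen after seeing the data, edgeR called 0 of 9. Under it the log2 fold change was -0.58 ± 0.16 (SE) for VCL, -0.33 ± 0.13 for ACTN4, -0.28 ± 0.13 for ACTB, -0.21 ± 0.12 for FLNA and -0.14 ± 0.10 for ACTG1. The value of VCL kept its size, while those of FLNA, ACTG1 and ACTN4 moved toward 0 by more than their SE in the fit without the offset, and TAGLN2, MYL9 and TPM1 changed sign, at 0.02, 0.07 and -0.02.

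**Figure D4:**
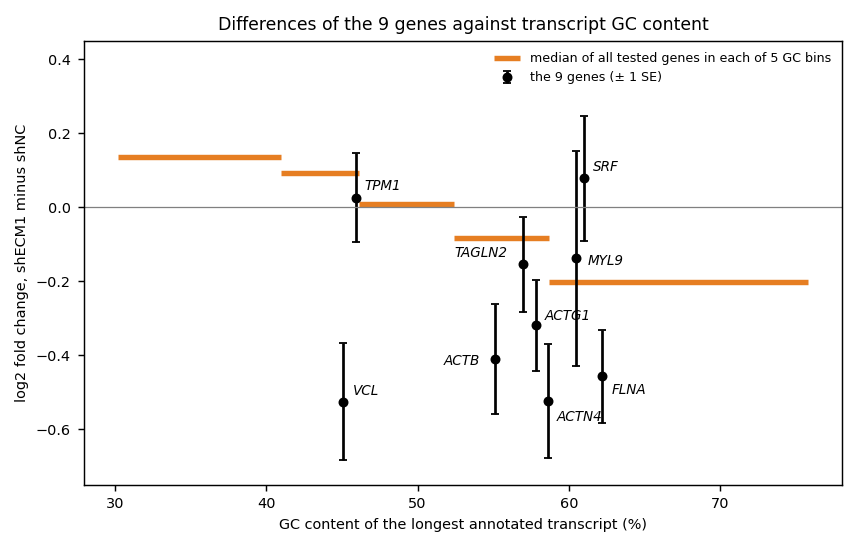
Log2 fold change (vertical axis, shECM1 minus shNC) of the 9 genes (black points, bars ± 1 SE) against the GC content in percent of the longest annotated transcript, with the median of all tested genes in each of 5 bins of GC content (orange). The bin medians step down from 0.135 to -0.202, VCL lies well below its bin, and SRF lies above its bin.

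Ratios of a member to a related gene within a library do not depend on library scaling. They were computed for 9 pairs from raw counts, and each was tested with a two-sided exact permutation test, which cannot go below p = 0.1 with 3 libraries against 3. In 0 of the 9 pairs were the groups apart, and adjusted p-values ran from 0.675 to 0.9. ACTB over ACTG1 was 1.19, 1.06 and 1.23 in the controls and 1.12, 1.09 and 1.09 in shECM1 (exact permutation p = 0.4). ACTN4 over ACTN1, the other non-muscle alpha-actinin, was 2.05, 1.97 and 2.18 in shNC and 1.92, 1.89 and 1.999 in shECM1 (exact permutation p = 0.2). VCL over TLN1, which encodes the vinculin ligand talin, was 1.21, 1.11 and 1.36 in shNC and 1.14, 1.12 and 0.85 in shECM1. TPM1 over TPM4 had the largest difference, 0.34 on the log2 scale (exact permutation p = 0.3). It was 0.187, 0.256 and 0.174 in shNC and 0.242, 0.256 and 0.271 in shECM1. Differences in log2 ratio were 0.06 for TPM1 over TPM3, -0.07 and -0.05 for MYL9 over MYL12A and MYL12B, and 0.17 for TAGLN2 over TAGLN.

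The rest of the pathway was read from 10 lists of 128 other genes, of which 121 were tested. Like the members, these lists were chosen with earlier results of these data known. edgeR called 0 of them in either direction. At an unadjusted p under 0.05, 40 of 121 were lower and 3 higher (14.2% and 8.31% of all genes). Groups were apart with shECM1 lower in 32 and higher in 6 (13.2% and 11.2% of all genes). DESeq2 called 22 lower and 0 higher (4.61% and 0.875% of all genes), and edgeR without shNC replicate 2 called 44 lower and 3 higher (14.1% and 9.73%). The median log2 fold change was -0.183, and -0.157 with the GC offset. In these lists 97 of 121 genes were negative, against 6109 of all 12576 genes tested. As in the 9 members, shNC replicate 2 was the lowest control in most of them, 98 of 121 (81.0%), against 39.8% of all genes.

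Partners of SRF had 5 of 7 tested genes negative, with a median of -0.163. MRTFA, the actin-sensing coactivator, was at 47.0, 41.9 and 44.8 CPM in shNC and at 38.0, 35.8 and 36.7 CPM in shECM1, without overlap (log2 fold change -0.28 ± 0.11 SE, edgeR adjusted p = 0.179). It was the 1 of 7 partners with groups apart and shECM1 lower, beside 13.2% of all genes. Its transcript has 61.3% GC, and with the GC offset its log2 fold change was -0.05. ELK1, a ternary complex factor, had a log2 fold change of -0.32 ± 0.13 (SE), with shNC replicate 2 at 48.2 CPM and shECM1 replicate 3 at 48.9 CPM. MYOCD, the muscle coactivator of SRF, had 0 counts in every library.

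Among 16 tested further targets of the MRTF arm 12 were negative, with a median of -0.242, 5 lower (TGFB1I1, PDLIM7, CNN2, FHL1 and ACTN1) and 1 higher (CCN1) at an unadjusted p under 0.05, where 14.2% of all genes were lower and 8.31% higher. TGFB1I1, an adhesion adaptor also called HIC-5, was at 6.68, 4.38 and 8.16 CPM in shNC and at 2.58, 2.68 and 2.63 CPM in shECM1 (log2 fold change -1.28 ± 0.27 SE, edgeR adjusted p = 0.0973). PDLIM7, a scaffold of stress fibres, was at 144.5, 86.0 and 202.0 CPM in shNC and at 74.2, 67.6 and 58.8 CPM in shECM1 (-1.11 ± 0.24 SE). All shECM1 libraries lay below all controls in both genes. CCN1, a secreted matrix protein named after its values were seen, was the 1 gene of this list with shECM1 apart and higher, at 0.429 to 0.646 CPM in shNC and 1.09 to 1.61 CPM in shECM1. These levels rest on only 6 to 22 counts per library, and CCN1 was not called (edgeR adjusted p = 0.115). Of 9 immediate-early genes with serum response elements all 9 were negative, with a median of -0.842, which included EGR1 (-0.84 ± 0.14 SE) and NR4A1 (-1.76 ± 0.35 SE). At an unadjusted p under 0.05, 8 of these 9 were lower, beside 14.2% of all genes. Groups were apart with shECM1 lower in 6 of them, beside 13.2% of all genes. No test of the difference between these lists was made. Smooth muscle products of the MRTF arm were scarce, with ACTA2 at 5 to 12 counts per library and CNN1 at 0 to 4, and the muscle actins ACTA1, ACTC1 and ACTG2 had at most 4 counts in any library.

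Of 17 genes for monomer binding, severing and capping 13 were negative, with a median of -0.108 against 0.011 for all genes, and 2 were lower at an unadjusted p under 0.05, a share no larger than the 14.2% of all genes. These were GSN, the severing protein gelsolin, at 142.0, 93.2 and 163.6 CPM in shNC and 78.2, 80.5 and 78.7 CPM in shECM1, and CAPG, a capping protein, with a log2 fold change of -0.51 ± 0.16 (SE). Of 17 genes of the Arp2/3 complex, formins and activators 14 were negative, with a median of -0.09. The formin gene FMNL3 had a log2 fold change of -0.58 ± 0.17 (SE) and WASF2, an activator of Arp2/3, of -0.41 ± 0.14 (SE). Both were among the 3 of 17 genes with groups apart and shECM1 lower, beside 13.2% of all genes. At an unadjusted p under 0.05, 2 of the 17 were lower, beside 14.2% of all genes. Among 12 myosin II genes 7 were negative, with a median of -0.102, and 2 were lower at that p, beside the same 14.2%. MYH14, a non-muscle heavy chain, was at 72.0, 39.8 and 76.7 CPM in shNC and at 35.9, 37.5 and 28.3 CPM in shECM1, while MYH9, another heavy chain, had a log2 fold change of -0.32 ± 0.12 (SE) and overlapping groups.

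Crosslinker and adhesion plaque genes had lower medians than these. Of 13 crosslinkers and membrane linkers 11 were negative, with a median of -0.259, and 6 were lower and 1 higher (PLS3, 0.26 ± 0.10 SE, named after its values were seen) at an unadjusted p under 0.05, beside 14.2% and 8.31% of all genes. MSN, the membrane linker moesin, had a log2 fold change of -0.51 ± 0.16 (SE). Of 16 plaque genes 14 were negative, with a median of -0.259, and 7 were lower and 1 higher (ENAH, 0.38 ± 0.15 SE, likewise) at that p, beside the same shares of all genes (14.2% and 8.31%). TNS4, a tensin of epithelial cells, was at 167.4, 96.5 and 218.3 CPM in shNC and at 81.6, 82.0 and 71.3 CPM in shECM1 (log2 fold change -1.04 ± 0.23 SE), and TNS1, another tensin, stood at -0.86 ± 0.24 (SE).

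**Figure D5:**
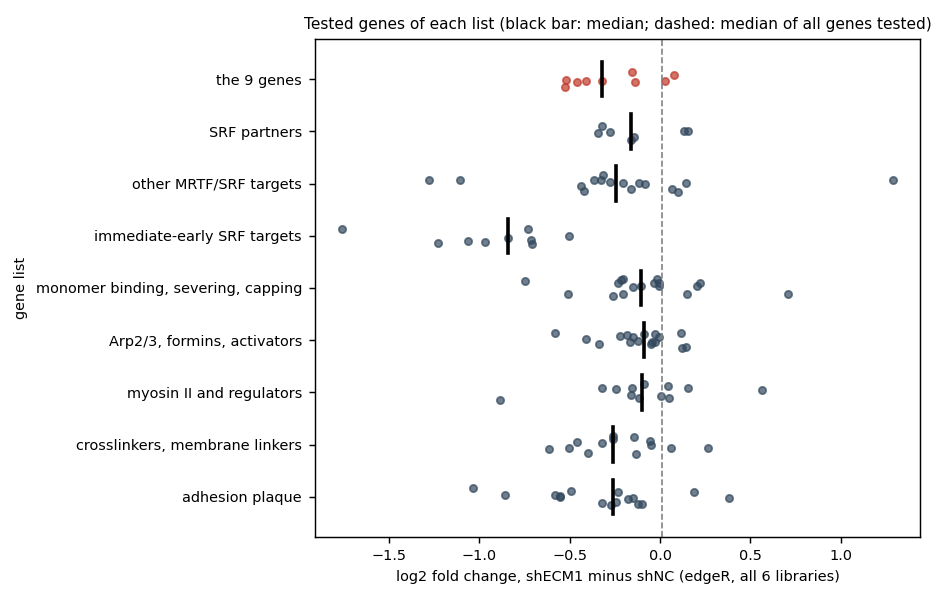
Log2 fold change (horizontal axis, shECM1 minus shNC, edgeR on all 6 libraries) of every tested gene of the 9 members (red) and of 8 other lists (dark), with the median of each list (black bar) and of all genes tested (dashed line, 0.011). List medians run from -0.842 for the immediate-early SRF targets to -0.09 for Arp2/3, formins and activators, and the members' median is -0.319.

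Markers of other cell types were read beside these lists, since fibroblasts and smooth muscle express many of the same genes. Of 10 fibroblast and smooth muscle markers 5 were tested, PDGFRA and COL3A1 had 0 counts in every library, and the summed level was 34.8 to 56.7 CPM in shNC and 25.8 to 33.2 CPM in shECM1. COL1A2, DCN and SYNPO2 had at most 4 counts in any library, and most of the sum came from COL1A1, LUM, MYH11 and DES. Their smallest p-values belonged to COL1A1, a collagen chain (log2 fold change -1.08 ± 0.21 SE), and DES, the muscle filament desmin (-1.30 ± 0.37 SE). Of 7 immune markers 2 were tested, CD68 (-1.05 ± 0.29 SE) and LYZ (-0.96 ± 0.34 SE), with PTPRC, CD3E and TYROBP at 0 counts. The summed immune level was 74.1 to 191.1 CPM in shNC and 48.1 to 76.9 CPM in shECM1, mostly from CD68. Of 5 endothelial markers 2 were tested, VWF and PECAM1, and KDR had 0 counts, with sums of 9.73 to 12.2 CPM and 8.04 to 9.22 CPM. Among the epithelial markers the smallest p-values belonged to CDH1 (-0.43 ± 0.15 SE) and CDH17 (-0.42 ± 0.18 SE). Of the 7 tested, 5 were negative, and EPCAM (0.14) and CDX2 (0.31) were positive. The sums for fibroblast and endothelial markers did not overlap between groups, in the direction of FLNA, ACTN4 and VCL, while the immune sums overlapped. The endothelial sums were close, at no less than 9.73 CPM in shNC and no more than 9.22 CPM in shECM1. Of the tested markers in these sums only COL1A1 and VWF had groups apart, where 13.2% of all genes were apart and lower. Of FLNA, ACTN4 and VCL, the lowest levels were those of VCL, 245.8 to 512.4 CPM. The part of fibroblasts or endothelial cells in the levels of FLNA, ACTN4 and VCL was not tested.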

How the data were processed

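The deposited table holds raw counts, 1 whole number per gene and library, for 3 shNC and 3 shECM1 libraries of SW620. The submitters' processing notes name fastp, STAR, featureCounts, DESeq2 and Seurat with builds GRCh38 and hg38. Use of strand is not given in the sources used here, nor are versions, settings or annotation. Each column was treated as 1 library.

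Symbols were found for 20462 of 20476 identifiers, and GENCODE release 29 (GRCh38) gave positions and GC content. The tests used edgeR 4.0.16 in R 4.3.3 (filterByExpr, TMM, glmQLFit, glmQLFTest, no covariate), with Benjamini-Hochberg adjustment over 12576 genes and a threshold of 0.05. SE was taken from the F statistic and the log2 fold change. Alternatives were DESeq2 1.42.0, limma-voom (limma 3.58.1), other scalings and filters, a replicate block, leaving out each library, and, chosen after seeing the data, GC and exon length offsets (loess span 0.5) and DESeq2 or the GC offset without shNC replicate 2. Ratios added 0.5 counts. The procedure was tested on simulated counts with 1 spread setting for all genes and no divergent control library or GC trend. That test does not cover those features of these libraries.

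Members and lists were chosen with earlier results of these data known. Named are all members, ECM1, pair partners, the 5 genes nearest to SRF (mean log2 CPM of at least 1) and, in each list without a call, the 2 smallest p-values. Intervals cover the spread between libraries only. 1 further list and 1 of the 9 gene pairs are counted in the totals and not reported here.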

Additional observations from a re-analysis of the deposited data

How the results depend on the processing

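Other scalings (RLE, upper quartile, library size only), a minimum of 50 counts in 3 samples, limma-voom and the exon length offset gave 0 called members and 0 called genes, and none changed the sign of any member. With no count filter 2 members and 505 genes were called, with DESeq2 3 members and 689 genes. Leaving out 1 library gave 0 to 5 called members and 0 to 3037 called genes, and all calls came without shNC replicate 2. Without that library DESeq2 called 5 members and 2681 genes, and the GC offset called 4 members and 3357 genes. The median log2 fold change of the members was -0.14 with the GC offset and -0.42 to -0.20 over the other settings. ACTB, ACTG1, FLNA, ACTN4 and VCL stayed negative in all 18 alternatives. With the GC offset TAGLN2 stood at 0.018, TPM1 at -0.015 and MYL9 at 0.072, and TPM1 at -0.036 when shNC replicate 2 was left out as well. Leaving out 1 library gave -0.11 to 0.19 for SRF, -0.04 to 0.14 for TPM1 and -0.33 to 0.05 for MYL9. It gave log2 ratio differences of -0.002 to 0.152 for TPM1 over TPM3, -0.348 to 0.183 and -0.285 to 0.17 for MYL9 over MYL12A and MYL12B, and -0.042 to 0.303 for TAGLN2 over TAGLN. The cause was not tested.

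With the replicate block 0 members were called and their median was -0.31. Deviations of same-numbered libraries correlated at -0.07, -0.05 and -0.18 across genes, and those of differently numbered libraries at -0.079 to 0.13. Deviations from the mean of so few libraries are tied to one another. These values therefore do not settle whether the numbers pair the libraries. MYL9 had the fewest counts of the members, 25 to 64 per library.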

Other observations

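With the GC offset and without shNC replicate 2, a combination chosen after seeing the data, edgeR called SRF higher in shECM1, at a log2 fold change of 0.452 ± 0.135 (SE) (edgeR adjusted p = 0.0329). Over all alternatives the adjusted p of SRF ran from that value to 0.965, and in the fit of all libraries it was 0.81. The same combination called VCL, ACTN4 and ACTB lower. Of all 12730 genes tested in it, edgeR called 1750 higher and 1607 lower. Calls in either direction were thus common, and a call alone does not set SRF apart from other genes.

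ARPC4, a subunit of the Arp2/3 complex that nearly every cell uses, was at 1.32 to 3.97 CPM (18 to 40 counts per library), while its partner ARPC2 was at 291.9 to 435.5 CPM. ARPC1B, another subunit, was also low, at 2.37 to 4.01 CPM (28 to 56 counts per library). ARPC4 and ARPC1B are counted in the list of Arp2/3, formins and activators. How reads shared by overlapping genes were counted is not given in the sources used here, and these values are reported only as the table lists them. ARPC4, ARPC2 and ARPC1B were named after their values were seen.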
